A study of Mus musculus with 4 samples.

Results

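The genes described here are 41 immediate-early and flow-responsive genes, read in mouse aorta on Affymetrix arrays. They were chosen by name, as every probe set whose platform annotation gives 1 gene symbol, current or older, that is on the list. The list was drawn up with earlier results of these data known, so shares set beside all genes are descriptions only. A probe set is a group of short probes that together report 1 transcript. The 41 genes had 76 probe sets among the 45101 on the array. Of these, 58 probe sets of 36 genes had a mean intensity above 27.5, the median over all probe sets, and the 36 genes are set beside the 11703 genes that passed the same filter. Where a gene has several probe sets, the brightest by mean was used.

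RNA was taken from 4 groups of mice with 1 array each. The controls, B6 below, are C57BL/6 mice with the genotype apoE-/-, in which the gene of apolipoprotein E is knocked out, and their label names atherosclerosis. Ath29 congenic mice, titled Ch9, carry the strain label C57BL/6 too and are labelled as resistant to atherosclerosis, and the labels do not state whether they are apoE-/- as well. A congenic strain holds a segment of a donor strain on another background, and here the donor is not named. Mice of both strains were weaned onto chow at 3 weeks of age and at 4 weeks either stayed on it or were moved to a Western diet for 2 weeks. The labels do not say how many mice gave RNA for an array. A group here is 1 array, so folds and log2 differences compare these 4 arrays and none has a replicate check. Runs of 4 values are intensities, unless named otherwise, in 1 order throughout: B6 on chow, B6 on Western diet, Ath29 on chow, Ath29 on Western diet.

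The arrays had similar median intensities, from 27.9 in B6 chow to 28.8 in Ath29 chow. The source label says aorta while the extraction text says liver. Acta2, the smooth muscle actin, read between 10395 and 11269 intensity units, and albumin (Alb), the main hepatocyte transcript, between 33.7 and 64.0. Of 11 hepatocyte genes with a probe set, whose summed intensity ran from 2775 to 5121, 6 lay below 27.5 on every array. The summed intensity of 15 heart muscle genes was 15355 in B6 Western and between 1018 and 1497 on the other arrays. For 10 brown fat genes the 4 sums were 11001, 20850, 16367 and 13115. Signal at the 3' end of actin over that at its middle, a sign of RNA integrity, was 5.10, 5.63, 10.2 and 7.62. For Gapdh the same ratio ran from 8.87 in Ath29 chow to 10.6 in Ath29 Western. Signal at the 3' end over that at the 5' end was 24.4, 25.4, 31.5 and 28.5 for actin. For Gapdh it ran from 22.8 in Ath29 chow to 31.3 in B6 chow. The 5' end thus read far lower than the 3' end on every array. All 15 smooth muscle genes listed were lower in Ath29 chow than in B6 chow (100%, against 58.9% of all 11703 genes kept), with a median log2 difference of -0.24. Of these, 3 were at least 2-fold lower (20%, against 1.94% of all genes) and 0 at least 2-fold higher (against 2.16%). The part of any of these signals and ratios in the results below was not tested. In whole tissue, fewer cells of a type and less RNA per cell cannot be told apart.

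Immediate-early genes are switched on within minutes of a stimulus, such as a growth factor, stretch or injury, through transcription factors that are already in the cell, and their messenger RNAs are short-lived. Many encode transcription factors (FOS and JUN, which pair as AP-1, the EGR zinc finger proteins and the NR4A nuclear receptors), and others encode proteins that end the response, such as the dual-specificity phosphatases and the RNA-destabilising protein tristetraprolin. In arteries KLF2 and KLF4 are known as the factors that endothelium raises under steady laminar flow, and EGR1, FOS and the matricellular protein CCN1 respond to disturbed flow and stretch.

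The 36 genes were mostly lowest on 1 array, that of Ath29 mice on chow. There 24 of the 36 (66.7%) had their lowest value, against 31.8% of all genes kept. The other 3 arrays held the lowest value of 4 members each, or 11.1%, against 22.6% of all genes in B6 chow, 27.5% in B6 Western and 18.1% in Ath29 Western. The highest value lay in B6 chow for 15 members (41.7%, against 34.9% of all genes), in B6 Western for 11 (30.6%, against 26.4%), in Ath29 chow for 5 (13.9%, against 17.6%) and in Ath29 Western for 5 (13.9%, against 21.1%). Without the B6 Western array, where heart muscle signal was high, 26 of the 36 members were lowest in Ath29 chow, against 44% of all genes. Without B6 chow these were 24 of 36 (66.7%), against 37.5%, and without Ath29 Western 26 of 36 (72.2%), against 39.2%. Without the Ath29 chow array, 19 of 36 (52.8%) were lowest in Ath29 Western, against 31.1% of all genes. For Nr4a1, 1 of the 24, the margin was slight, with 419.4 in Ath29 chow and 419.8 in Ath29 Western.

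**Figure D1:**
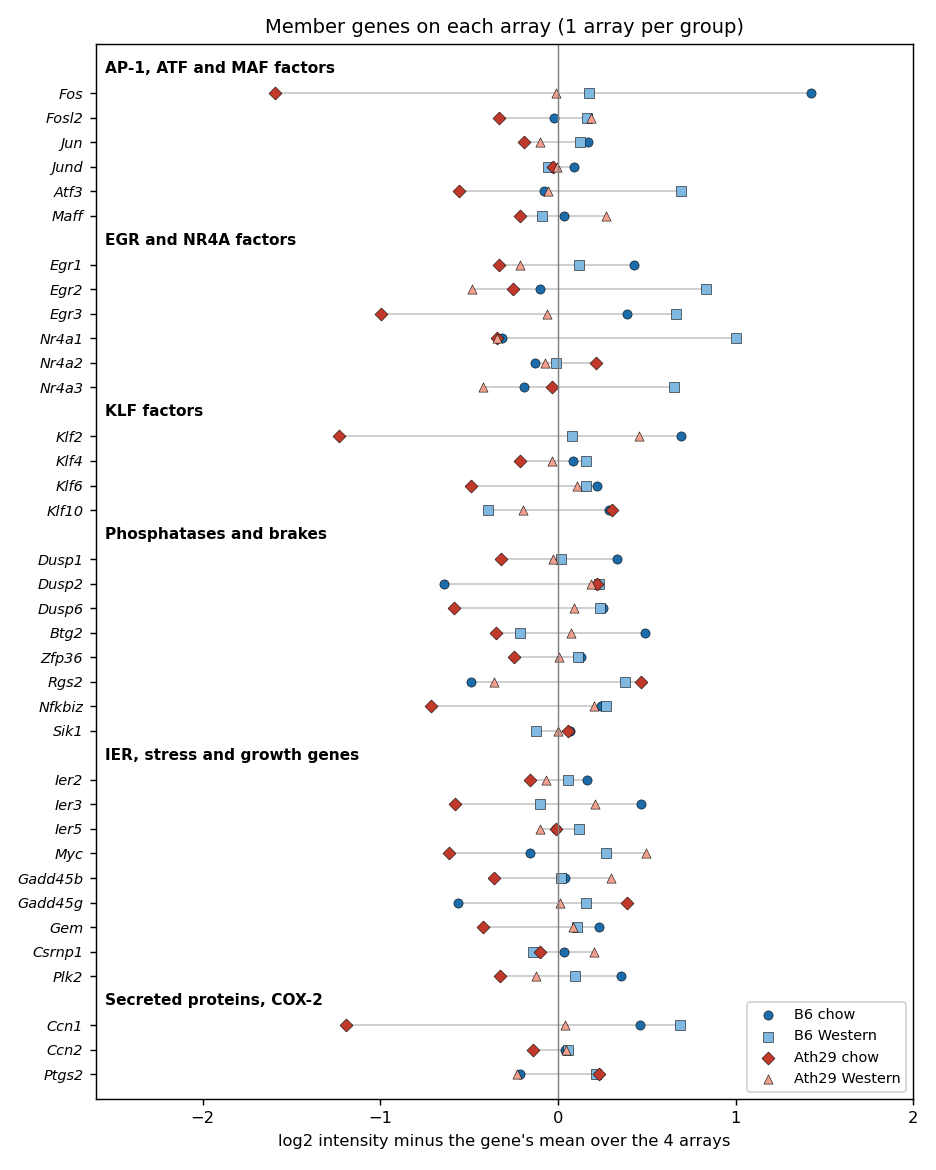
Log2 intensity of each of the 36 members on the 4 arrays, minus the gene's own mean over the arrays (x axis, log2), with genes grouped by role and 1 point per array. Ath29 chow is the leftmost point for 24 genes, with the widest ranges in Fos (8.07-fold), Klf2 (3.80-fold) and Ccn1 (3.69-fold).

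**Figure D2:**
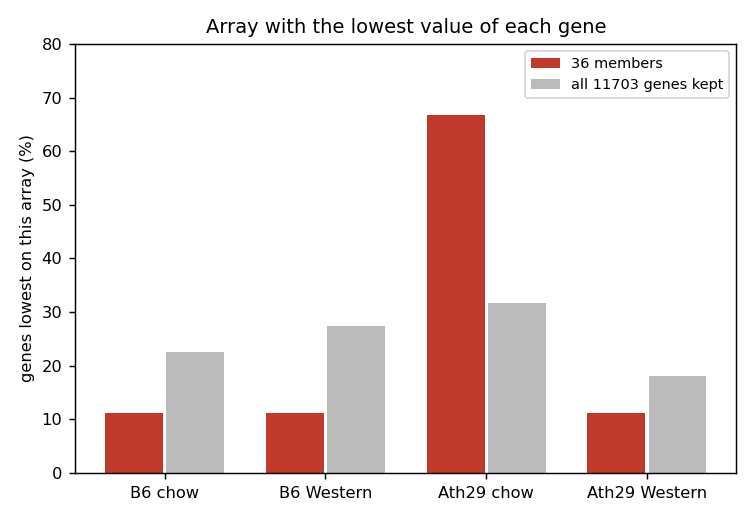
Share of genes (percent, y axis) that have their lowest value on each array (x axis), for the 36 members and for all 11703 genes kept. The Ath29 chow bar stands at 66.7% for members and 31.8% for all genes, and the 3 other member bars at 11.1%.

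The size of the spread over arrays varied widely among the members. The highest array exceeded the lowest by at least 2-fold in 10 of 36 members (27.8%), against 10.3% of all genes kept. It did so by less than 1.5-fold in 13 members, a count that was not set beside all genes. The median range was 1.63-fold, against 1.38-fold over all genes. Among the members with little spread were Jund, the AP-1 subunit that many resting cells express, with 1.11-fold, Sik1, a kinase that restrains CREB signalling, with 1.14-fold, and Ccn2, the connective tissue growth factor, with 1.14-fold.

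Promoter windows are shown for 7 genes with a single window, picked after their values were seen, as examples of 3 patterns over the arrays. Egr2, whose difference on Western diet is larger than some of theirs, has several windows and is not printed. Each window is the 250 bases before the gene's start, from RefSeq, build GRCm38.p6, printed 5' to 3' on the gene's strand. Capitals mark matches, on both strands, to the core TGACG of the cyclic AMP element, the EGR site GCGNGGGCG, the TATA box TATAAA and the MEF2 box, the A/T-rich site of the MEF2 factors. The full cyclic AMP element TGACGTCA, the AP-1 site TGANTCA and the CArG box of serum response factor were searched too and have no match in these 7 windows, and no marked matches overlap. Fos, Klf2, Ccn1 and Ier3 were at least 2-fold lower in Ath29 than in B6 mice on chow. On Western diet Nr4a1 and, in the probe set used but not in its second, Nr4a3 were at least 2-fold lower. Rgs2 was highest in Ath29 chow in the probe set used, though another of its probe sets was highest in B6 Western. The windows are, in that order, chr12:85473640-85473889 (plus strand), chr8:72318812-72319061 (plus strand), chr3:145649986-145650235 (minus strand), chr17:35821463-35821712 (plus strand), chr15:101266596-101266845 (plus strand), chr4:48045055-48045304 (plus strand) and chr1:144004150-144004399 (minus strand).
Fos promoter: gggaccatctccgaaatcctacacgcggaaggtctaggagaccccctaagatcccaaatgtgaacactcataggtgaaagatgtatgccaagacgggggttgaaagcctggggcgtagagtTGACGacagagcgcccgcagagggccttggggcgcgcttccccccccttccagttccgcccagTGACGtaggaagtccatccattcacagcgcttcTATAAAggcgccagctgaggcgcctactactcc
Klf2 promoter: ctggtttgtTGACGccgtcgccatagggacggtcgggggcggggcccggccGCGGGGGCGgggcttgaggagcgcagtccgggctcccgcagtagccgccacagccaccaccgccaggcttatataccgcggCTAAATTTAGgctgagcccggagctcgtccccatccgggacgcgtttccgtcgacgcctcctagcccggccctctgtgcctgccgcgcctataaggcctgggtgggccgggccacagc
Ccn1 promoter: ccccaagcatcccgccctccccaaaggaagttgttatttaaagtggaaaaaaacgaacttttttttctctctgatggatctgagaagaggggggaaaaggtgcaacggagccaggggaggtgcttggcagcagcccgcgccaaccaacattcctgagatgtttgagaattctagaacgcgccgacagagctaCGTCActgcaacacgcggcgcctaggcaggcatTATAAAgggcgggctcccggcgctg
Ier3 promoter: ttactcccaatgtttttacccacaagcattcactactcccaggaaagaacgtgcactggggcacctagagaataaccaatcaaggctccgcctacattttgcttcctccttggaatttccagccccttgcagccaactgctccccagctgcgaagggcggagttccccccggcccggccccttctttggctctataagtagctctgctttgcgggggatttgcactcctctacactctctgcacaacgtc
Nr4a1 promoter: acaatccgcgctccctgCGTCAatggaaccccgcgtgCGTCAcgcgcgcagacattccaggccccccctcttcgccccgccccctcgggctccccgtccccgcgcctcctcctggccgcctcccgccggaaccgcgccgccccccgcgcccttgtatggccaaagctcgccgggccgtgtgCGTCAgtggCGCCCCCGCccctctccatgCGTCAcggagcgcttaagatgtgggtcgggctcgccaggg
Nr4a3 promoter: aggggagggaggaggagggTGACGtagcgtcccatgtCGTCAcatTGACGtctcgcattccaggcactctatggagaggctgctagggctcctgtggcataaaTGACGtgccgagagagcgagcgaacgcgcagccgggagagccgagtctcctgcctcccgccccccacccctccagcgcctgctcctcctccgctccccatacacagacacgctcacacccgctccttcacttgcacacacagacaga
Rgs2 promoter: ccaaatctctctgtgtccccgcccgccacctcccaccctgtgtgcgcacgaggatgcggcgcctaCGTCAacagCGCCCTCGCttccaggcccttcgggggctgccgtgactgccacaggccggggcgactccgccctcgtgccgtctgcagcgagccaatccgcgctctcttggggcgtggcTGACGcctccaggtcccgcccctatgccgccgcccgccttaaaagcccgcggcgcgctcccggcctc

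In Fos, a TGACG core begins 66 bases before the start and a TATA box 33 bases before it. In Klf2, the MEF2 box begins 118 bases and an EGR site 199 bases before the start. Nr4a1 and Nr4a3 hold 4 TGACG cores each, Ccn1 holds 1 and Ier3 none. Of the 41 genes, 31 have a window in the table, 40 windows in all. A TGACG core stood in 25 of the 40 windows (62.5%), against 17.8% of all 32851 windows of this length. An EGR site stood in 12 (30%) against 4.70%, a CArG box in 6 (15%) against 1.47%, a MEF2 box in 4 (10%) against 2.92%, the full cyclic AMP element in 4 (10%) against 1.55%, an AP-1 site in 1 (2.5%) against 6.75%, and a TATA box in 5 (12.5%) against 12.4%. The 6 CArG boxes belong to Dusp5, Zfp36 and several windows of Egr2. A match describes the letters of the window and does not show that a factor binds there.

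The comparison of strains on chow asks how Ath29 and B6 aortas differ without the Western diet. Of the 36 members, 5 were at least 2-fold lower in Ath29 mice (13.9%, against 1.94% of all genes kept) and 0 at least 2-fold higher (against 2.16%). In all 29 were below 0 (80.6%), against 58.9% of all genes, with a median log2 difference of -0.34 against -0.08. When arrays were scaled on their 75th percentile instead, 4 members were at least 2-fold lower and 2 higher, and the share of higher genes among all those called went from 52.7% to 64.5%. The members just short of 2-fold were Nfkbiz at -0.96, Rgs2 at 0.95 and Gadd45g at 0.95. On this pair of arrays the actin 3' to middle ratio was 10.2 in Ath29 and 5.10 in B6 mice.

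Among the AP-1, ATF and MAF factors, all 6 that passed the filter were below 0 on chow in the probe sets used (100%, against 58.9% of all genes). Fos, the inducible partner of JUN, read 1455, 614, 180.2 and 539.8 (B6 chow first). Ath29 chow lay far under the other 3 arrays and B6 chow far over them, and the strain difference on chow was 8.07-fold (log2 -3.01). Jun, its main partner, read 771, 748, 603 and 641, a difference of -0.36. Fosl2, a FOS relative, ran from 1404 to 2012 (difference on chow -0.31). Its second probe set, between 86.4 and 132, gave 0.61 and was highest in Ath29 chow, so its sign is not settled. Jund ran from 5299 to 5871 (-0.12). Atf3, the stress-induced ATF factor, read 591, 1007, 425 and 599, so that B6 Western stood highest and Ath29 chow lowest. Maff, a small MAF factor, ran from 426 to 595 (-0.25). Fosb, Fosl1 and Junb did not pass the filter, and their probe sets read at most 7.68, 27.1 and 8.65 on any array, so no difference is given for them.

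The 6 EGR and NR4A factors did not share 1 pattern. Egr1, the serum- and shear-induced zinc finger factor, read 3167, 2555, 1868 and 2029. Both Ath29 arrays lay below both B6 arrays, with differences of -0.76 on chow and -0.33 on Western diet. Egr3, a relative, read 161, 194, 61.3 and 117, again with both Ath29 arrays below both B6 arrays, and was 2.62-fold lower on chow. Egr2, Nr4a1 and Nr4a3 instead stood apart in B6 Western. Nr4a2 (Nurr1) ran from 306 to 387 in the probe set used and was higher in Ath29 mice on chow by 0.34. A second probe set past the filter read 142, 153, 336 and 173, and its difference on chow was 1.24, beyond 2-fold. The third gave 0.06, so the size for Nr4a2 depends on the probe set.

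Of the 4 KLF factors, 3 were lower in Ath29 mice on chow (75%, against 58.9% of all genes). Klf2, the flow-induced endothelial factor, read 182 and 119 in B6 mice on chow and Western diet, and 47.9 and 155 in Ath29 mice, and the difference on chow was 3.80-fold (log2 -1.93). Ath29 chow lay below the other 3 arrays. The summed intensity of 18 endothelial genes ran from 6916 in Ath29 chow to 7891 in B6 chow. The 16 of them past the filter had a median of -0.21 on chow, with 9 below 0 (56.25%, against 58.9% of all genes). Emcn lay below 27.5 on every array. The part of the endothelial genes in the Klf2 difference was not tested. Klf6, an injury-induced factor, read 4519, 4333, 2762 and 4178, a difference of -0.71. Klf4 ran from 1981 to 2563, with a difference of -0.30. Klf10, a TGF-beta-induced factor, split by diet, with 181 and 184 on chow in B6 and Ath29 mice and 113 and 130 on Western diet.

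Phosphatases and other brakes of the response were lower in Ath29 mice on chow in 6 of 8 cases (75%, against 58.9% of all genes), among them Sik1 at -0.01. Nfkbiz, an atypical IkB protein that steers NF-kB target genes, read 658, 669, 338 and 640. Only the Ath29 chow value stood apart in the probe set used. Dusp6, the phosphatase of ERK, read 247, 244, 139 and 221 with the same pattern. Dusp1, the phosphatase of p38 and JNK, read 4822, 3874, 3073 and 3754, and Btg2, an antiproliferative gene, read 155, 95.0, 86.7 and 116. Zfp36, which encodes tristetraprolin, ran from 266 to 346 with its lowest value in Ath29 chow, and Sik1 from 494 to 565. Dusp2 read 21.7 in B6 chow, below 27.5 and not told apart from background, and between 38.6 and 39.8 on the other arrays. Dusp5 did not pass the filter and read at most 23.0.

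Rgs2, which switches off Gq signalling in smooth muscle, differed by 0.95 between strains on chow and by -0.74 on Western diet. It read 1947 on chow and 3548 on Western diet in B6 mice, but 3771 on chow and 2126 on Western diet in Ath29 mice. The 2 high arrays are also the 2 with the most brown fat signal, and its part in the result was not tested. Gadd45g, a stress-induced growth arrest gene, read 463, 761, 895 and 689, again lowest in B6 chow and highest in Ath29 chow.

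Among the IER, stress and growth genes, 8 of 9 were below 0 on chow (88.9%, against 58.9% of all genes), among them Ier5 at -0.0015. Ier3, a stress-induced survival gene, read 712, 479, 344 and 593, and was 2.07-fold lower on chow (log2 -1.05, and -0.96 with quantile normalization). On Western diet it was 0.31 higher in Ath29 mice. Gem, a small GTPase, ran from 202 to 318, and Gadd45b, a stress-induced gene, from 786 to 1236, both lowest in Ath29 chow. Plk2, a polo-like kinase, ran from 86.8 to 139, with both Ath29 arrays below both B6 arrays. Ier2 ran from 93.5 to 117 and Ier5 from 479 to 558. Csrnp1 is the only member of chromosome 9, the chromosome of the Ath29 locus, and ran from 135 to 171, with -0.14 on chow and 0.34 on Western diet. Plk3 did not pass the filter and read at most 23.5.

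Of the secreted and enzyme genes, Ccn1, a matricellular protein of the vessel wall also known as Cyr61, read 1741, 2036, 552 and 1299. Both Ath29 arrays lay below both B6 arrays, and the difference was 3.15-fold on chow and 1.57-fold on Western diet. Ccn2, from the same family, read between 6721 and 7687 and was lowest in Ath29 chow. Ptgs2, the inducible cyclooxygenase, read 52.1, 70.1, 71.1 and 51.7 from the probe set used here.

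**Figure D3:**
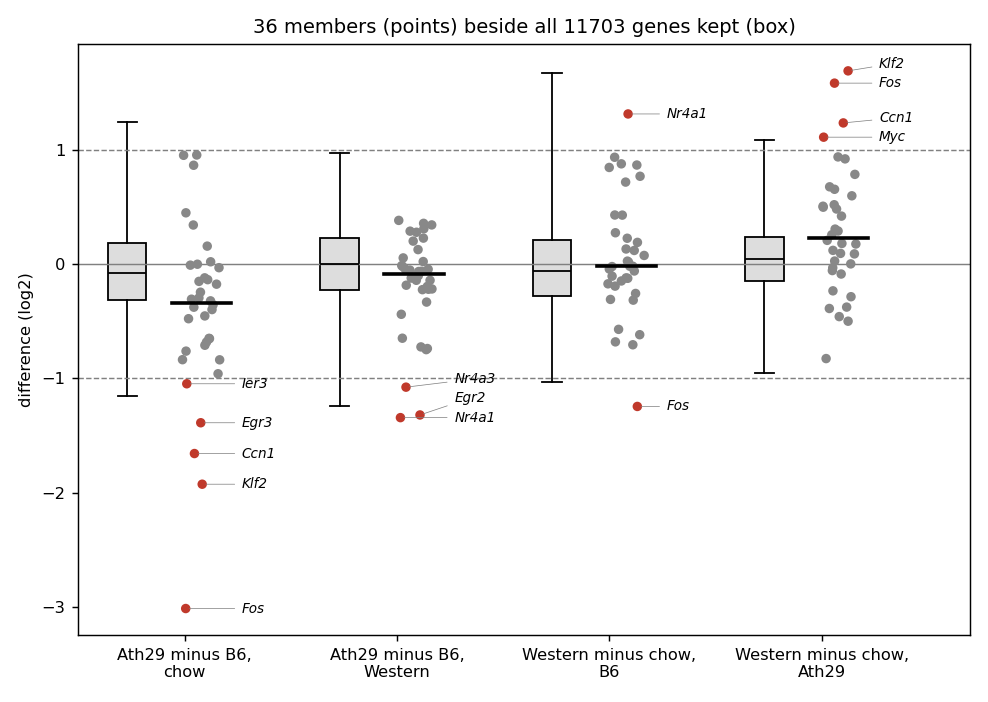
Log2 difference (y axis) of the 36 members as points, with their median as a bar, beside a box of all 11703 genes kept (quartiles, with whiskers from the 1st to the 99th percentile), for the 4 comparisons on the x axis. Red points lie at least 2-fold from 0 (dashed lines): 5 below on chow, 3 below on Western diet, 1 on each side for diet in B6, and 4 above for diet in Ath29 mice.

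On Western diet the median strain difference of the members was smaller in size than on chow, as it was over all genes kept. A different set of genes stood out. The median difference of Ath29 minus B6 was -0.08, against 0.00 over all genes kept. There 25 of 36 members were below 0 (69.4%), against 49.3% of all genes. At least 2-fold lower in Ath29 mice were 3 members (8.33%, against 2.03%), namely Nr4a1, Egr2 and Nr4a3, and 0 were at least 2-fold higher (against 0.846%). Nr4a1 (Nur77), a nuclear receptor induced in stimulated smooth muscle and macrophages, read 429 and 1065 in B6 mice on chow and Western diet, and 419.4 and 419.8 in Ath29 mice, and the difference on Western diet was 2.54-fold. Egr2 read 114, 218, 103 and 87.4, and Nr4a3 read 131, 236, 146 and 112. In the probe sets used, all 3 were high in B6 Western alone, as were the heart muscle genes with their summed intensity of 15355, whose part in these differences was not tested. Of the 5 genes at least 2-fold lower on chow, Ccn1 and Egr3 had differences of -0.65 and -0.72 on Western diet, and Fos, Klf2 and Ier3 had -0.19, 0.38 and 0.31.

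The 2 strain comparisons use different arrays. Ath29 was below B6 on both diets in 19 of 36 members (52.8%), against 26.7% of all genes, and above B6 on both in 1 (2.78%), against 18.5%. That 1 was Klf10, with 0.02 and 0.20. At least 2-fold lower on both diets were 0 of 36 members and 21 of the 11703 genes kept, so this was rare over all genes too. The members with both differences beyond -0.4 were Ccn1 (-1.66 and -0.65), Egr3 (-1.39 and -0.72) and Atf3 (-0.48 and -0.75). In 10 members (27.8%, against 32.2%) Ath29 was below B6 on chow and above it on Western diet, Klf2 and Ier3 among them.

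**Figure D4:**
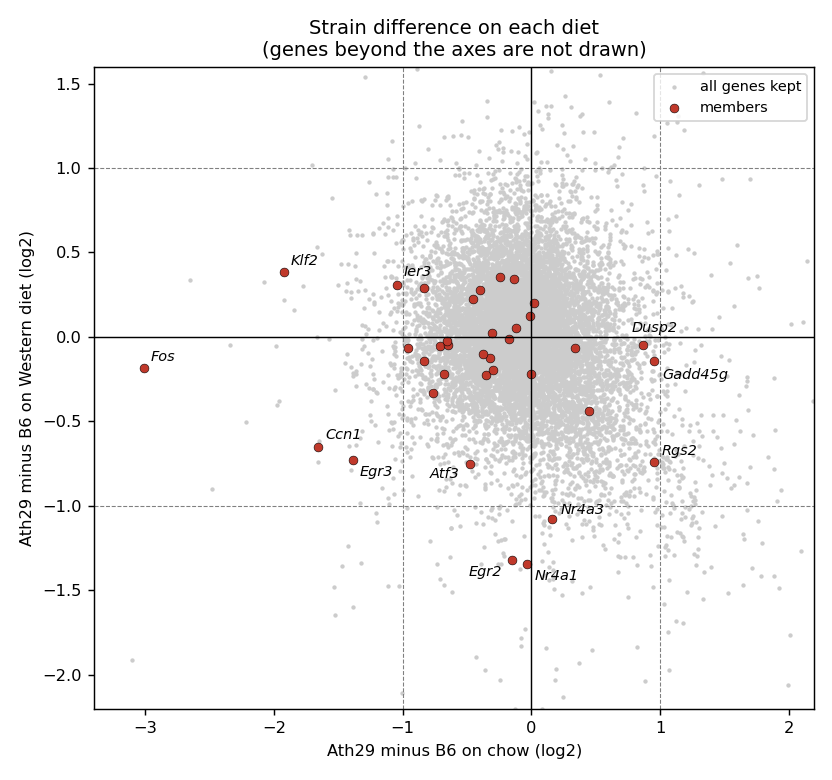
Strain difference on chow (x axis, log2) against that on Western diet (y axis, log2), for all genes kept in grey and the 36 members in red, with dashed lines at 2-fold. Fos, Klf2, Ccn1, Egr3 and Ier3 lie left of the chow line, and Nr4a1, Egr2 and Nr4a3 below the Western line. Past both lie 0 members, and 21 of the 11703 genes kept are at least 2-fold lower on both diets.

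The comparison of diets asks how the 2 diets differ in each strain, and it shares its arrays with the strain comparisons, so the values are given side by side. In B6 mice the members had a median of -0.02, against -0.06 over all genes, with 17 above 0 (47.2%, against 43.4%). At least 2-fold higher on Western diet was 1 member, Nr4a1 with 2.48-fold (2.78%, against 4.09% of all genes), and 1 was at least 2-fold lower, Fos with 2.37-fold (2.78%, against 1.17%). In Ath29 mice the median was 0.23, against 0.04, and 26 members were above 0 (72.2%, against 56.2%). Here 4 were at least 2-fold higher (11.1%, against 1.32%) and 0 at least 2-fold lower (against 0.854%). These were Klf2 with 3.23-fold, Fos with 2.99-fold, Ccn1 with 2.35-fold and Myc, the growth-promoting factor, with 2.16-fold. Myc read 51.6, 69.5, 37.7 and 81.3, and was the higher on Western diet in both strains. All 4 had their lowest value in Ath29 chow, and Fos and Klf2 were lower on Western diet in B6 mice. The size for Ccn1 depends on the probe set, with 0.17 to 1.44 over its 4.

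In 17 members (47.2%, against 36.9%) Western diet was below chow in B6 and above it in Ath29 mice. Western diet was above chow in both strains in 9 members (25%, against 19.3%) and below in both in 2 (5.56%, against 19.7%). Those 2 were Klf10, with -0.68 in B6 and -0.50 in Ath29 mice, and Sik1, with -0.19 and -0.06. Atf3, with 0.77 and 0.50, Egr3, with 0.27 and 0.94, and Ccn1, with 0.23 and 1.23, were among the 9. For comparison, the summed intensities of 15 macrophage genes were 5025, 10066, 6083 and 9997. Its part in these differences was not tested.

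The strain by diet difference, the strain difference on Western diet minus that on chow, was at least 2-fold in 10 of 36 members. It was positive in 5 (13.9%, against 4.96% of all genes kept): Fos at 2.83, Klf2 at 2.31, Ier3 at 1.36, Btg2 at 1.13 and Ccn1 at 1.01. It was negative in the other 5 (13.9%, against 6.75%): Rgs2 at -1.69, Nr4a1 at -1.31, Nr4a3 at -1.23, Egr2 at -1.17 and Gadd45g at -1.09. In the probe sets used, the positive genes had their lowest value in Ath29 chow, though Btg2 read nearly as low in B6 Western (86.7 and 95.0). Nr4a1, Nr4a3 and Egr2 were high in B6 Western in the probe sets used. Rgs2 was low in B6 chow and in Ath29 Western, and Gadd45g was low in B6 chow. The second probe sets of Btg2 and Egr2 gave strain by diet differences of only -0.04 and -0.06, and that of Btg2 was lowest in Ath29 Western. The median over members was 0.30, against 0.11 over all genes, and 26 of 36 (72.2%) were above 0, against 58.8%.

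An additive fit of strain and diet with limma takes this strain by diet difference as its error and leaves 1 residual degree of freedom per gene. By that fit 0 of the 36 members passed an adjusted p of 0.05 for strain (4 of all genes, 0.0342%), and the lowest Benjamini-Hochberg adjusted p of a member was 0.9999. On simulated data the number of false calls at that threshold varied between random draws and could exceed what it allows. The p-values and SEs of this fit are thus descriptions only. At an unadjusted p under 0.05, 5 members were lower in Ath29 mice (13.9%, against 2.29% of all genes for either direction): Ccn1, Egr3, Fos, Egr1 and Atf3. Over the alternatives this count ran from 1, with no filter, to 7, with each gene's probe sets averaged. Their strain effects were -1.15 ± 0.27 (SE) for Ccn1, -1.06 ± 0.29 for Egr3, -1.60 ± 0.54 for Fos, -0.55 ± 0.19 for Egr1 and -0.61 ± 0.24 for Atf3. For diet, limma called 0 members and 0 of all genes (0%) at an adjusted p of 0.05, and 3 members at an unadjusted p under 0.05 (8.33%, against 2.19% of all genes; 1 to 4 over the alternatives): Ccn1 with 0.73 ± 0.27, Myc with 0.77 ± 0.32 and Atf3 with 0.63 ± 0.24.

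Several members were measured by more than 1 probe set, which is a check on the probes and not on the mice. Of the 13 members with several probe sets past the filter, 10 had the same sign of the strain difference on chow in all of them, 7 had it on Western diet and 6 had 1 sign of the diet difference in Ath29 mice. Those with mixed signs on chow were Fosl2 (-0.31 and 0.61), Ier5 (-0.0015 and 0.31) and Ptgs2. The 4 Ccn1 probe sets gave -1.89 to -1.23 on chow and -0.71 to -0.22 on Western diet, and 0.17 to 1.44 for diet in Ath29 mice, so its 2-fold diet difference rests on the probe set chosen. The 4 Klf6 probe sets above 27.5 on every array gave -0.71 to -0.42 on chow, the other being below it in Ath29 chow, and the 3 Nfkbiz probe sets -0.96 to -0.22. A second Nfkbiz probe set read 40.6, 34.7, 34.7 and 26.3, lowest in Ath29 Western and there below 27.5. The third read 111, 100, 63.4 and 77.2, with both Ath29 arrays below both B6 arrays. The 3 Rgs2 probe sets gave 0.95 to 1.32 on chow and -1.12 to -0.74 on Western diet. Ptgs2 was not settled, since a second probe set read 73.1, 81.0, 7.46 and 71.1, low in Ath29 chow alone. That low value is below background and was raised to the floor of 9.60, so its difference on chow has no exact size, while the one used gave 0.45. For Nr4a3 the second probe set read 56.8, 45.5, 122 and 39.1, highest in Ath29 chow and not in B6 Western, and gave -0.22 on Western diet against -1.08, so its pattern is not settled. For Egr2 the second gave -0.70 against -1.32.

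**Figure D5:**
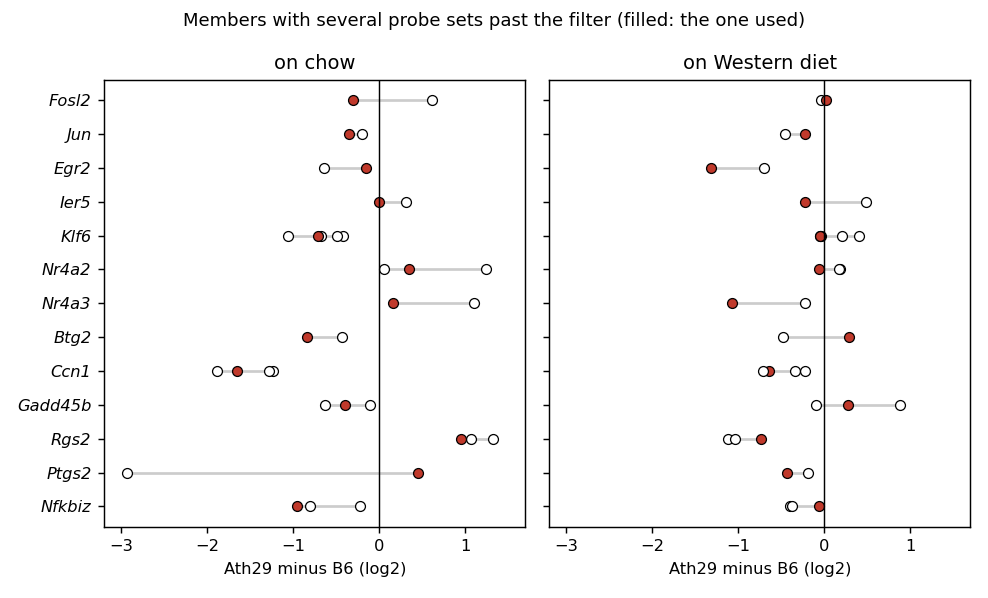
Strain difference (x axis, log2) on chow and on Western diet for each probe set past the filter, for the 13 members with several (y axis), with the probe set used filled. Ccn1, Klf6 and Rgs2 keep their sign on chow over all probe sets, while those of Fosl2, Ier5 and Ptgs2 lie on both sides of 0. The Ptgs2 point at -2.93 is set by the floor.

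Other genes of the response, from a list of 43, gave 39 past the filter. On chow 30 of the 39 were lower in Ath29 mice (76.9%, against 58.9% of all genes, median -0.23), 2 at least 2-fold lower (against 1.94%) and 1 higher (against 2.16%). On Western diet 22 were lower (56.4%, against 49.3%), with a median of -0.07. The 2 lower on chow were Cited2, a transcriptional co-regulator induced by flow and hypoxia, which read 524, 574, 214 and 473, and Id1, an inhibitor of bHLH factors, which read 91.1, 74.8, 44.3 and 84.6. Both were lowest in Ath29 chow. The 1 higher was Dusp4, a phosphatase of ERK, which read 57.7 in B6 Western and 38.0 in Ath29 chow and lay below 27.5 on the other arrays, so its differences are not exact. Vegfa, the endothelial growth factor, read 182, 459, 239 and 237, high in B6 Western alone. Socs3, the feedback inhibitor of IL-6 signalling, was higher on Western diet in both strains, by 0.64 and 1.39.

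Genes upstream of the response, kinases, SRF partners, CREB and MEF2 factors and Sprouty inhibitors, had 25 of 30 past the filter. Of these 21 were lower in Ath29 mice on chow (84%, against 58.9% of all genes, median -0.17) and 12 on Western diet (48%, against 49.3%, median 0.00). At least 2-fold lower on chow were 2 (8%, against 1.94%), Spry4 and Elk1, each with its Ath29 chow value below 27.5. Endothelial genes known to follow flow, among them Nos3 and Thbd, had 17 of 20 past the filter. On chow 13 of the 17 were lower in Ath29 mice (76.5%, against 58.9% of all genes), with a median of -0.16. On Western diet 2 of 17 were lower (11.8%, against 49.3%), with a median of 0.12. The VEGF receptor Kdr alone was at least 2-fold lower (5.88%, against 2.03%). Nos3, the endothelial nitric oxide synthase and a known target of KLF2, read 94.5, 83.6, 84.4 and 102. Of 12 targets of SRF and YAP, 10 were lower on chow (83.3%, against 58.9% of all genes, median -0.22). Tpm1 (-1.40) and Myl9 (-1.25), both contractile genes, were at least 2-fold lower (16.7%, against 1.94%). Ankrd1, a stretch-responsive gene that is also abundant in heart muscle, read 43.5, 280.4, 38.6 and 34.6, high on the array with the most heart muscle signal.

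Heat shock genes are another rapid stress response. Of 12 past the filter, 8 were lower in Ath29 mice on chow (66.7%, median -0.17) and 7 on Western diet (58.3%, median -0.08), against 58.9% and 49.3% of all genes, so both shares lie near the background.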

How the data were processed

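The data are 4 arrays, 1 per group, with biotin-labelled cRNA per the labels' protocols. The authors deposited 1 intensity per probe set and array, taken as linear because of the range of the values, with the software and any normalization not given in the sources used. Gene symbols came from the platform annotation: 34945 had 1 gene symbol, 932 several, 9160 none, and 64 are controls. Of the 34945, 34943 matched the RefSeq gene table (GRCm38.p6), through which older symbols were updated.

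Intensities were taken to log2, shifted to a common array median (factors 0.990 to 1.02), and raised to the 25th percentile (9.60) where lower. Probe sets with a mean above the median (27.5) were kept. A value below 27.5 is taken as background. Differences were counted at 2-fold. The precision is limited by the number of arrays, since no group has a second. An additive fit (limma 3.58.1 in R 4.3.3, eBayes with an intensity trend) was run over all genes kept. On simulated data it recovered the effects. With 1 residual degree of freedom, its false calls at an adjusted p of 0.05 varied between random draws and could exceed what that threshold allows. Counts, medians and figures came from Python 3.11.15 with pandas 2.3.3. Every member is accounted for, with all 4 values for those that differed by at least 2-fold and for up to 12 others, and ranges for the rest. Of the other lists, genes at least 2-fold different could be named. Alternatives were other scalings, floors, filters, probe set choices and folds. The members and lists were chosen with earlier results of these data known. Nos3 was named after its values were seen.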

Additional observations from a re-analysis of the deposited data

Results flagged for a closer look

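In 2 genes the same contrast ran at least 2-fold in opposite directions in the 2 settings, each with 1 array per group, so the difference was not tested. Fos was lower on Western diet in B6 mice by -1.25 (log2) and higher in Ath29 mice by 1.58. Rgs2 was above B6 in Ath29 mice on chow, and below it on Western diet, in a pair of its 3 probe sets, with 1.07 and -1.12 in the first and 1.32 and -1.03 in the second. The Rgs2 probe set used above gave 0.95 and -0.74, under 2-fold on both diets.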

How the results depend on the processing

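No paired analysis was possible because each group has 1 array, and for the same reason no replicate could be left out of a group. The median of the members stayed between -0.38 and -0.27 on chow, -0.12 and -0.06 on Western diet, -0.02 and 0.02 for diet in B6 and 0.17 and 0.26 for diet in Ath29 mice over the 9 scalings, floors, filters and probe set choices. The strain by diet median of 0.30 went to 0.20 without the probe sets marked as binding more than 1 transcript. Members lowest in Ath29 chow numbered 19 to 26 over these and over leaving out each other array, alternatives added after the data were seen, with 19 of 29 members under the stricter filter. The members at least 2-fold higher in Ath29 mice on chow went from 0 to 2 with quantile normalization and with a common 75th percentile, and to 1 with each gene's probe sets averaged. That mean also gave 2 members higher on Western diet in B6 mice, against 1, and 2 lower on Western diet in Ath29 mice, against 0. With the stricter filter, 2 members in place of 4 were higher on Western diet in Ath29 mice, and 3 in place of 5 had a positive strain by diet difference. At 1.5-fold, 3 of 36 members were higher and 13 lower in Ath29 mice on chow, against 850 and 1127 of the 11703 genes kept. On Western diet 7 were lower, against 923. In B6 mice 7 were higher and 4 lower on Western diet, against 1162 and 834. In Ath29 mice 10 were higher and 1 lower on it, against 705 and 510. The strain by diet difference was positive in 14 and negative in 7, against 1987 and 1652. At 3-fold, 3 members were lower on chow, 0 lower on Western diet, 0 higher and 0 lower with diet in B6 mice and 1 higher in Ath29 mice. There were 2 positive and 1 negative strain by diet differences. These 3-fold counts were not set beside all genes. Fewer genes are tested by the stricter filter and a fold moves the line by construction, and the cause of the other changes was not tested. The additive fit called 0 members in each of its 10 alternatives for strain and for diet. Without the probe sets so marked, the diet difference of Ccn1 in Ath29 mice was 0.19 in place of 1.23, from another probe set.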
